A study of Mus musculus with 8 samples.

Results

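The NK receptor complex on mouse chromosome 6, the H2 complex on chromosome 17 and the type II and type I keratin clusters on chromosomes 15 and 11 were examined by array comparative genomic hybridization in 8 liver tumors. Their members are the array probes whose mm9 positions lie at 128.0 to 130.8 Mb of chromosome 6 (202 probes), 33.5 to 37.5 Mb of chromosome 17 (360 probes), 101.1 to 102.0 Mb of chromosome 15 (91 probes) and 99.2 to 100.1 Mb of chromosome 11 (80 probes), which makes 733 of 170305 probes. Each region was read against the 3 Mb on each side of it, called its flanks. The regions were chosen on the ratios described here, so these ratios are a description and carry no test of tumor against pool.

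Each tumor came from a different male FAH-/- mouse. Its DNA carried Cy5, and the reference on every array carried Cy3 and was pooled from the livers of 6 FAH+/+ littermates of the same sex. Fah encodes the last enzyme of tyrosine breakdown, and mice without it live on NTBC, a drug that blocks an earlier step. The mice drank 7.5 mg/L NTBC and were then kept at 2.5% of the usual dose for 6 to 12 months. The tumors form 1 group and are numbered 1 to 8 in order of deposition. The labels used here give no strain, the arrays hold no other tissue of the tumor mice, and the pool has no spread of its own. An inherited difference between mice and a change acquired in a tumor therefore cannot be told apart from a ratio alone.

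These 4 clusters are families of related genes that lie side by side and that differ between inbred mouse strains to very different degrees. The NK receptor complex encodes lectin-like receptors of natural killer cells: Klrb1 receptors bind Clec2 proteins, Klrd1 pairs with the Klrc chains, Klrk1 is an activating receptor for stress ligands, and the Klra (Ly49) receptors recognize class I H2 molecules on other cells. The number and kind of Klra and Klrb1 genes differ between strains. The H2 complex is the mouse major histocompatibility complex, with class I and class II genes that present peptides to T cells and NK cells. Type II and type I keratins pair to form the intermediate filaments of epithelia and hair, and hepatocytes use the pair Krt8 and Krt18.

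The RefSeq gene table of GRCm38 was used for names and order only, since the probes are placed on mm9. It lists 6 Klrb1 genes, 9 Clec2 genes, 3 Klrc genes and 14 Klra genes on chromosome 6, 11 of the 14 Klra genes being protein coding. Along the chromosome the Klrb1 genes come before Klrd1, Klrk1 and Klrc3, Klrc2 and Klrc1, and the Klra genes follow from Klra17 to Klra2. On chromosome 17 it lists 46 H2 genes, from H2-K2 and H2-K1 through the class II genes to H2-D1 and then the Q, T and M class I genes. There are 27 keratin genes on chromosome 15, where Krt8 and Krt18 stand side by side at the distal end, and 27 keratin and 23 keratin-associated protein genes on chromosome 11. No probe value below is assigned to a gene.

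Values are log2 ratios of tumor over pool. Much of the variation among probes was common to the arrays, whose ratios correlated pairwise at 0.668 to 0.915 across the autosomal probes. The noise between neighbouring probes was 0.62 to 0.65 in tumors 1 to 6 and 0.39 in tumors 7 and 8, which carried the common part at a scale of 0.57 and 0.60 against 1.03 to 1.08 in the other tumors. With this shared pattern subtracted the correlations were -0.23 to 0.32 and the noise 0.12 to 0.21. Lower correlations follow from the subtraction itself. Plain ratios are given unless the removal of the pattern is named. The 8 arrays lie on 2 slides of 4, tumors 1 to 4 on slide 1 and tumors 5 to 8 on slide 2.

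The mean level of the NK receptor complex, the H2 complex and the type II keratins lay near that of their flanks. The type I keratins stood higher and held the largest offset in any tumor, 0.36. The NK receptor complex had a cluster median minus flank median of 0.028, 0.0088, -0.051, 0.11, -0.015, -0.089, 0.096 and -0.013 in tumors 1 to 8. These values lie on both sides of 0, with a mean of 0.0095 ± 0.068 (SD, n = 8), and 90.0% of 807 autosomal blocks of the same length had a mean offset at least as far from 0. With means over probes in place of medians the mean was -0.048, so its direction is not settled. The corresponding offsets of the H2 complex were -0.068, -0.096, -0.017, -0.057, -0.054, -0.033, -0.105 and -0.030, with a mean of -0.057 ± 0.031 (SD, n = 8). All 8 were below 0, and 34.2% of 564 autosomal blocks reached that distance. The mean was -0.13 with flanks of 1 Mb and -0.012 with the pattern removed.

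The type II keratin cluster, whose gene family includes Krt8, went up and down with its flanks. Its offsets were 0.054, 0.073, 0.132, 0.098, 0.168, 0.061, -0.136 and 0.013 in tumors 1 to 8, with a mean of 0.058 ± 0.092 (SD, n = 8), a distance from 0 reached by 55.5% of 2245 autosomal blocks of its length. The median of the cluster itself, against the array median, was 0.68 in tumor 5, 0.53 in tumor 6 and 0.43 in tumor 3, and the flanks of those tumors stood at 0.52, 0.47 and 0.30. Tumor 7 was the lowest, at -0.25 in the cluster and -0.12 in the flanks. The mean offset was -0.018 with means over probes, 0.0074 with flanks of 1 Mb and 0.098 without tumors 7 and 8, so its direction is not settled either.

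The type I keratin cluster stood above its flanks in all 8 tumors. Its offsets were 0.357, 0.160, 0.308, 0.302, 0.262, 0.235, 0.037 and 0.114 in tumors 1 to 8, with a mean of 0.22 ± 0.11 (SD, n = 8). Tumors 7 and 8, which carry less of the shared pattern, were the lowest. With the pattern removed the mean was 0.0042 ± 0.014 (SD, n = 8), with 4 of 8 tumors above 0. Removal takes out any difference common to most arrays by construction. Of 2245 autosomal blocks of this length, 2.54% had a mean plain offset at least as far from 0.

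The offsets were also compared between the slides, a grouping that the choice of regions did not use. The slide 2 mean minus the slide 1 mean was -0.029 for the NK receptor complex, 0.0042 for the H2 complex, -0.063 for the type II keratins and -0.12 for the type I keratins. The two-sided exact permutation p over 70 splits was 0.60, 0.886, 0.429 and 0.143 in the same order, and the Benjamini-Hochberg adjusted p over the 4 clusters was 0.80, 0.886, 0.80 and 0.571. With 4 arrays against 4 the smallest exact p is 0.0286. No difference between slides was detected beyond the spread within them. Tumors 7 and 8 are both on slide 2.

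Single probes of the NK receptor complex, in contrast, differed strongly from tumor to tumor. For each probe the range over the 8 tumors was taken after removal of the pattern and of the local level, and 16 of the 202 probes (7.92%) had a range over 1.5, called variable below, against 0.758% of 161253 autosomal probes. Of the 16, 8 had a tumor spot not well above background on at least 1 array. The count was 8 with normexp background (0.241% of autosomal probes) and 8 with only spots well above background (0.257%), where a probe with a dim spot on any array drops out. Of 807 autosomal blocks of the same length, 0.372% held such a share. In the flanks of the complex 8 of 363 probes (2.20%) passed, and there were 0 of 360 in the H2 complex, 1 of 91 in the type II keratins and 0 of 80 in the type I keratins. The range of the probe nearest the threshold was 1.45 below it and 1.57 above it. At a range over 1 the counts were 37, 10, 2 and 4 in the order NK, H2, type II and type I, against 3.97% of autosomal probes.

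The deepest of these probes lies at chr6:129690108-129690167. Its ratios relative to the flanks were -0.63 in tumor 1, -4.46 in tumor 2, -4.81 in tumor 3, 0.71 in tumor 4, -4.44 in tumor 5, -5.43 in tumor 6, 0.96 in tumor 7 and -0.24 in tumor 8. The pool was far above tumors 2, 3, 5 and 6 here and below tumors 4 and 7, and tumors 1 and 8 lay between. The tumor signal of the spot was not well above background in tumors 2, 3, 5 and 6, so the size of those ratios is limited by the background. For comparison, the loss of 1 of 2 copies in every cell would give -1.

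At the following probes too, some spots were not well above background, called dim here, which limits the size of their ratios and their order among the low tumors. The probe at chr6:130254712-130254771, dim in tumors 2 and 3, gave 0.35, -4.06, -2.90, 1.07, -2.20, -1.75, 1.02 and 0.04 in tumors 1 to 8. At chr6:128736781-128736840, further to the left in the complex and dim in tumors 2, 3, 5 and 6 and in 2 reference spots, the ratios were 0.14, -1.56, -1.26, 2.03, -1.52, -2.09, 1.47 and 0.28. At chr6:128884254-128884313, dim in tumors 2, 3 and 6, they were 0.38, -1.43, -2.61, 1.60, -0.80, -1.43, 0.87 and 0.29. The tumors took the same places at all of these, with tumors 2, 3, 5 and 6 lowest, tumors 1 and 8 in the middle and tumors 4 and 7 highest. The neighbouring probes at chr6:129939104-129939163 and chr6:129946079-129946138 had tumors 4 and 7 highest as well, at 1.32 and 1.85 and at 0.64 and 1.07. Tumors 2, 3, 5 and 6 were lowest and their tumor signal was dim at both, and the reference was dim on 5 arrays at the first and on 2 at the second, so the background limits these ratios as well.

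Some probes ran the other way. At chr6:129795763-129795821 tumors 4 and 7 were the lowest, at -0.83 and -1.53, tumors 1 and 8 stood at 0.04 and -0.04, and tumors 2, 3, 5 and 6 were the highest, at 0.62, 0.66, 0.53 and 0.51. At the next probe, chr6:129806695-129806754, these 2 tumors stood at -1.04 and -1.29. At chr6:129097488-129097547 they stood at -0.82 and -1.54, and the other tumors between 0.14 and 0.66. So the tumors that were highest at most of the variable probes were the lowest at these 3.

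Of the 16 probes, 13 put the tumors in this order, with tumors 4 and 7 at one end, tumors 1 and 8 in the middle and tumors 2, 3, 5 and 6 at the other end (11 upward and 2 in reverse). At 14 of the 16, tumors 1, 4, 7 and 8 all lay on one side of the other 4, as they did at 5.48% of the variable autosomal probes. The order was read from these data and is a description. Over all autosomes 1.72% of the 1222 probes with a range over 1.5 had it, 21 in all, of which 19 were on chromosome 6. Of these, 13 were in the complex, 5 in its flanks and 1 elsewhere on the chromosome, and the 18 in the complex and flanks span 7.41 Mb. Without tumors 7 and 8, 15 probes of the complex passed, and in 14 of them tumor 4 was at one end, tumor 1 next and tumors 2, 3, 5 and 6 beyond.

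The same arrangement reached beyond the complex on both sides. In the left flank the probe at chr6:125685388-125685447 gave -0.60, -4.97, -5.27, 0.22, -4.82, -5.23, 0.61 and -0.47 in tumors 1 to 8, and the tumor signal was again not well above background in tumors 2, 3, 5 and 6. The probe at chr6:125841213-125841272, dim in tumor 3, gave 1.25, -1.67, -1.81, 2.42, -1.15, -1.52, 1.84 and 1.26. In the right flank chr6:133228169-133228228, with 1 dim reference spot, gave 1.39, -1.14, -0.20, 2.41, -0.82, -0.78, 2.16 and 1.12. Tumors 4 and 7 were highest and tumors 2, 3, 5 and 6 lowest at the last 2 of these. At the first, tumors 4 and 7 were highest as well on the plain scale. At 7 of the 8 variable flank probes tumors 1, 4, 7 and 8 lay above the other 4.

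Of the 16 probes, 8 had a direct neighbour that also passed and the other 8 had none. The deepest probe had neighbours at 19.3 and 19.5 kb whose ranges were 0.41 and 0.25. In windows of 8 consecutive probes, 7 of the 25 windows of the complex had a range over 0.5 (28%), against 1.19% of 20175 autosomal windows, and there were 0 of 45 in the H2 complex, 0 of 11 in the type II keratins and 0 of 10 in the type I keratins. Without tumors 7 and 8 it was 6 of 25 against 0.441%. Among the 7 windows, only that at chr6:129815393-129874417 held no variable probe, and the others held 1 or 2. The share of windows therefore largely repeats the count of variable probes and is not a separate result.

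The window at chr6:129633667-129721838, with the deepest probe, had plain means of -0.08, -0.71, -0.80, -0.01, -0.68, -0.83, 0.25 and -0.03 in tumors 1 to 8. With the pattern removed the means ran from -0.36 in tumor 6 to 0.41 in tumor 4, and with that probe also left out from -0.07 in tumor 2 to 0.14 in tumor 1. The window at chr6:129884248-129964762 gave plain means of 0.15, -0.56, -0.31, 0.17, -0.55, -0.74, 0.36 and 0.08. With the pattern removed the lowest was -0.50, in tumor 6, and the highest 0.37, in tumor 1, and with its 2 variable probes also left out the lowest was -0.09, in tumor 7, and the highest 0.18, in tumor 1. The range between tumors was smaller in both windows once these probes were left out. Since these probes were chosen for a wide range with the pattern removed, that follows largely from their choice. The window at chr6:129815393-129874417 held no variable probe and still had a range of 0.55, with tumor 7 lowest at -0.36 and tumor 2 highest at 0.19 with the pattern removed.

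Over the 8 arrays the SD of the log2 signal at the 16 probes had a median of 1.01 in the tumor channel, from 0.58 to 2.72, and of 0.15 in the reference channel, from 0.020 to 0.43. Over all autosomal probes the median SD was 0.26 in the tumor channel and 0.11 in the reference channel. The tumor channel was the more variable at 16 of 16 probes, and at 148321 of 161460 autosomal probes, so that count does not set the 16 apart. The 16 were chosen for a wide range of the ratio, so a large SD in at least 1 channel follows from that choice. The reference pool was the same on every array, and these SDs are a description.

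Segmentation of each array alone, with a focal step defined as at least 5 probes over less than 2 Mb at 0.4 or more from the flanks, found 3 steps in the 4 clusters. All 3 lay in the NK receptor complex and each was called in 1 array, so 0 steps were shared. The count was 0 with normexp background and 1 at a step size of 0.5, so the steps depend on these settings. It was 1 without tumors 7 and 8, which follows from leaving out tumor 7, since all calls were in tumors 6 and 7. The chance of a call also differs between arrays. On simulated regions a step of 0.4 with 20 probes was found in 50% of cases at a noise of 0.39, near that of tumors 7 and 8. At a noise of 0.64, near that of the other tumors, it was found in 2%. A simulated step counted as found at a lower mean than the 0.4 asked of a focal step, so these shares can be too high. A step without a call in an array may therefore still be present there, and the count of shared steps is limited by this. High steps held 1.42% of the probe values of the complex and low steps 1.24%, against 0.328% and 0.038% in autosomal blocks. In 16.5% of 747 autosomal blocks of 3 Mb at least 1 array had a focal step.

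The first step, in tumor 6, was a low one at chr6:128680994-128746179, with 7 probes over 65.2 kb and a mean of -1.13 ± 0.30 (SE over probes). Over the same probes the other tumors stood at -0.38, -0.81, -0.70, -0.03, -0.92, 0.23 and -0.23 in tumors 1, 2, 3, 4, 5, 7 and 8. The nearest to tumor 6 were again tumors 2, 3 and 5. It contains the variable probes at chr6:128726561-128726620 and chr6:128736781-128736840, at -2.29 and -2.09 in tumor 6, so its mean rests partly on these 2. The overlapping window chr6:128663206-128736840 also holds both. With the pattern removed its mean was -0.49 in tumor 6, and -0.11 with these 2 probes left out. The SE of a step is over probes of 1 array and not over tumors.

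The other steps were in tumor 7 and adjoin each other. A low one at chr6:129795763-129908872 had 13 probes and a mean of -0.41 ± 0.18 (SE over probes), where tumor 4 was at -0.19 and the other tumors between -0.03 and 0.20. It begins with the variable probes at chr6:129795763-129795821 and chr6:129806695-129806754, at -1.53 and -1.29 in tumor 7, so its mean rests partly on them. The window at chr6:129815393-129874417, inside this step and without a variable probe, had a plain mean of -0.16 in tumor 7. A high one began at chr6:129916600 and ran past the last probe of the complex to chr6:131257051, with 38 probes and a mean of 0.47. Over its 23 probes inside the complex the means were 0.38, -0.13, -0.02, 0.49, -0.01, -0.06, 0.53 and 0.34 in tumors 1 to 8. Tumors 1, 4, 7 and 8 were thus all above the other 4 there although 1 array was called. Those probes include the variable ones at chr6:129939104-129939163, chr6:129946079-129946138, chr6:130212984-130213031 and chr6:130254712-130254771. At the last, tumors 2, 3, 5 and 6 stood at -4.06, -2.90, -2.20 and -1.75, so the split rests partly on these variable probes. Means over the stretch without them were not taken. With the pattern removed 7 calls were made, again all in the NK receptor complex, in tumors 1, 2, 3, 4, 5 and 7. Counted by direction and overlap they form 6 steps, but not separate places. All except the low step of tumor 3 at chr6:129602888-129690167 lie within chr6:129884248-130317661. In that stretch, which holds the variable probes just named, calls were high in tumors 1, 4 and 7 and low in tumors 2 and 5. The calls include a high step at chr6:130187946-130317661 shared by tumors 1 and 4. High steps then held 2.29% and low steps 1.79% of the probe values, against 0.031% and 0.0728% in autosomal blocks.

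Some windows stood above the flanks in all 8 tumors, tumors 7 and 8 included. In the NK receptor complex the window at chr6:129982635-130213031 had means of 0.73, 0.48, 0.51, 0.71, 0.59, 0.59, 0.63 and 0.58 in tumors 1 to 8. It spans the largest gap between probes of the complex, 159 kb at chr6:130020112-130179228. Beyond chr6:130427680 the region holds no probe, and the next one lies 551 kb on. In the H2 complex the last window, chr17:37422763-37496824, had means of 0.37, 0.43, 0.57, 0.52, 0.52, 0.55, 0.36 and 0.44. The highest type I keratin window, chr11:99940305-100007963, differed from these, with 0.47 to 0.72 in tumors 1 to 6 but 0.01 and 0.14 in tumors 7 and 8.

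On the plain scale the H2 window at chr17:35118613-35184354 had means of 0.47 to 0.63 in tumors 1 to 6 but 0.02 and 0.13 in tumors 7 and 8. With the pattern removed the H2 complex was even between tumors. Its 45 windows had a median range between tumors of 0.18 with the pattern removed and a highest of 0.36, against a median of 0.20 over all autosomal windows. The lowest window, chr17:36945975-36995595, had plain means of -0.38, -0.42, -0.25, -0.25, -0.34, -0.25, -0.26 and -0.24 in tumors 1 to 8, below the flanks in all of them. The single most variable probe of the complex had a range of 1.31. In the keratin clusters the highest window ranges were 0.37 for type II and 0.40 for type I. The 1 variable type II probe, chr15:101184375-101184434, was at 0.88 to 1.80 in tumors 1 to 6 and at -0.08 and -0.32 in tumors 7 and 8, so the tumors did not take the order seen on chromosome 6. With the pattern removed it was at 0.66 in tumor 4, -0.62 in tumor 7 and -0.94 in tumor 8.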

How the data were processed

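The authors scanned 8 arrays and extracted them with Agilent Feature Extraction 10.7.3.1, per the submitters' processing notes. The deposited processed signals are intensity values, background-subtracted, detrended and linearly dye-normalized per the file headers, and the deposited log10 ratios are tumor (Cy5) over pool (Cy3). Deposited median spot and background signals are raw intensity, and the deposited quality marks of spots (0 or 1) are of the kind other. The deposited series table holds the same log10 ratios, rounded (largest difference 0.00499). Dyes were not swapped, so dye bias at a probe does not cancel. Per the labels' protocols 1.5 µg of DNA was labelled.

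From the 174305 spots that are not controls, outlier spots were left out (115 to 221 per array), spots of a probe were averaged, and log2 ratios were computed and centred by the median of the array. Between 97.0% and 99.9% of spots were well above background. Precision is limited by the number of arrays. For the shared pattern, chromosome medians were subtracted, the median of a probe across the 8 arrays was taken, and the result was scaled to each array. The local level was the running median of 301 probes. Segments came from recursive circular binary segmentation (1% false splits per region on simulated noise, values limited to 4 noise SD, merging below a z of 4), written with numpy 2.4.6, numba 0.67.0 and pandas 2.3.3 under Python 3.11.15. Steps that overlapped by 50% of the probes of each counted as shared. A simulated step counted as found at a lower mean than the 0.4 asked of a focal step, so the shares found are for a looser rule. On simulated regions with a noise of 0.64, a step of 0.8 was found in 16% of cases with 8 probes and in 83% with 20 probes. With 8 probes a step of 1.5 was found in 98% at this noise, and a step of 0.4 in 1%. At a noise of 0.39, near that of tumors 7 and 8, steps of 0.8 and 0.4 with 8 probes were found in 86% and 7%. On the plain scale short steps of 0.4 are therefore mostly missed in all arrays. Those of 0.8 are mostly missed only in the noisier arrays, not in tumors 7 and 8. Normexp used limma 3.58.1 in R 4.3.3, on median signals.

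The named items were to be up to 6 steps per cluster held by 6 to 8 arrays, and up to 4 held by 1 to 5. The variable probes, the windows and the tumor order were chosen after their values were seen, with ranges over 1, 1.5 and 2 all looked at. Members and lists were chosen with earlier results of these data known. No sequence is printed, and gene positions on mm9 were not used here.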

Additional observations from a re-analysis of the deposited data

How the results depend on the processing

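The arrays show ratios at probes a median of 9.43 to 10.4 kb apart, not sequence, so a probe that binds less well and a probe whose target is missing cannot be told apart. The reference is 1 pool, and zygosity, copy number and the share of tumor cells were not measured. No paired analysis was possible because the tumors form 1 group. A correction for the GC content of probes was not run.

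The mean offset of the H2 complex was -0.13 with flanks of 1 Mb and -0.012 with the pattern removed, and that of the type I keratins 0.0042 with the pattern removed, a setting added after the values were seen. The other settings moved the 4 mean offsets by less than 1 SD, but not all kept their direction. With means over probes the NK receptor complex was at -0.048 and the type II keratins at -0.018. The NK receptor complex was also below 0 without tumors 7 and 8 (-0.0012), on slide 2 only (-0.0049) and with tumor 4 or tumor 7 left out, and it was 0.033 with normexp, 0.024 on slide 1 only, 0.023 with flanks of 1 Mb and 0.016 with only spots well above background. The type II keratins were at 0.0074 with flanks of 1 Mb, -0.0035 with the pattern removed, 0.098 without tumors 7 and 8, 0.089 on slide 1 only and 0.026 on slide 2 only. Leaving out each tumor gave -0.0049 to 0.024 for the NK receptor complex, -0.063 to -0.051 for H2, 0.042 to 0.085 for type II and 0.20 to 0.25 for type I keratins. The count of focal steps, 3, was 0 with normexp background or slide 1 only, 1 without tumors 7 and 8, 1 at a step size of 0.5, 5 at a split threshold of 5% and 7 with the pattern removed. The 3 steps were called in tumors 6 and 7, so the counts without tumors 7 and 8 and on slide 1 only follow from the arrays left out. Otherwise the cause was not tested. Shared steps, 0, became 1 at a split threshold of 5% and 1 with the pattern removed. The slide difference changed sign for the NK receptor complex with means over probes (exact permutation p = 0.829), for H2 with means over probes (exact permutation p = 0.20) and with flanks of 1 Mb (exact permutation p = 0.429), and for type II keratins without tumors 7 and 8 (exact permutation p = 0.667), with no call in any setting.

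The 16 variable probes of the NK receptor complex, a count added after the values were seen, were 37 at a range over 1 (3.97% of autosomal probes) and 10 at a range over 2 (0.296%), 8 with normexp and an offset of 50 (0.241%), and 8 with only spots well above background (0.257%), where a probe with a dim spot on any array drops out. They were 21 with the pattern kept (2.46%), 15 without tumors 7 and 8 (0.454%), and 13 to 16 with 1 tumor left out (0.515% to 0.744%).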

Other observations

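Outside the NK receptor complex and its flanks, 10 further probes of chromosome 6 with a range over 1.5 had tumors 1, 4, 7 and 8 on one side of tumors 2, 3, 5 and 6, which makes 31 on the chromosome of 67 on all autosomes. This arrangement was chosen on the probes of the complex, and the probes elsewhere were not examined one by one. Over all autosomes 5.48% of the 1222 variable probes had it.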
